A study of Mus musculus with 4 samples.

Results

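A set of 9 endothelial marker genes was followed in mouse mitral valve: Pecam1, Cdh5, Emcn, Kdr, Tek, Tie1, Eng, Nos3 and Vwf. Every probe set annotated to exactly 1 of these 9 genes was taken, which gave 11 of the 22690 probe sets on the array, for 9 of 12393 named genes. Cdh5 and Eng had 2 probe sets each and the other genes 1. Each of 4 oligonucleotide arrays, read in 1 colour, carried total valve RNA: 1 from valves homozygous for a mutant fibrillin-1 gene (Fbn1 C1039G/C1039G, Hom), 2 from heterozygous valves (Het) and 1 from wild-type valves (Fbn1 +/+, WT). Fibrillin-1 is the glycoprotein of extracellular microfibrils, and its mutation causes Marfan syndrome; the level of its own transcript was not analysed here. The Het labels give 1 mutated and 1 normal copy without naming the substituted residue, so that their allele being that of Hom is an assumption. Age, sex, strain and the number of animals behind an array were not stated, and p-values measure only the spread between the 2 Het arrays.

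Endothelial cells cover both faces of a valve leaflet and meet the flowing blood. They are joined by VE-cadherin and PECAM-1, respond to vascular endothelial growth factor and angiopoietins through receptor tyrosine kinases, make nitric oxide, and store von Willebrand factor. During heart development some of them leave the endocardial layer and become the interstitial cells that build the leaflet. In RNA from whole tissue, fewer cells of a type and less RNA per cell cannot be told apart. PECAM-1 is also made by leukocytes and platelets, and von Willebrand factor by megakaryocytes, so these markers are not exclusive to the endothelium.

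Values are deposited intensities after scaling each array to a common median, and are not comparable between probe sets. All 9 genes read above the floor, an intensity of 19, by at least 1 probe set on every array of the labelled tissue. Of the 11 probe sets, 10 passed the filter, a mean intensity of at least 62.6. The exception was the second Cdh5 probe set (1422047_at), at 25.3 in Hom, 16.6 and 21.3 in Het replicates 1 and 2, and 34.9 in WT. It was at the floor in Het replicate 1 and carries no test.

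Het replicate 2 stood apart from the other arrays. It was at least 2-fold from Het replicate 1 at 11.3% of the 11313 probe sets kept, whereas Hom was at least 2-fold from WT at 1.22%. The signal at the 3' end of Actb over that at its 5' end, which rises as RNA degrades, was 3.04 on this array and 2.16 to 2.25 on the others; for Gapdh it was 4.65 against 3.19 to 4.18. Centring levels the median before the filter. Among the probe sets kept, the median difference of Het replicate 2 from WT was then 0.18 log2 units above 0. With the scaling as deposited it was 0.07 below. Medians over the endothelial genes are therefore also given relative to the median of all probe sets kept, and the Het arrays are given separately.

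The promoters of 4 of these genes are shown to set side by side transcripts that differed more and less on the Het replicate 2 array. Among genes with a promoter sequence, Tie1 and Kdr, which encode receptors of endothelial growth signals, were the lowest there relative to WT. Tek, the paralogue of Tie1, and Emcn lay closer to WT, although Tek (-0.46 log2 units) was not far from Kdr (-0.64). Each sequence is the 250 bases before the annotated start, read 5′ to 3′ on the gene's strand, from RefSeq (GRCm38.p6). Of the 9 genes, 5 matched the promoter table (Emcn, Eng, Kdr, Tek and Tie1). The positions are chr4:118489850-118490099 (- strand) for Tie1, chr5:75978456-75978705 (- strand) for Kdr, chr4:94739039-94739288 (+ strand) for Tek and chr3:137340828-137341077 (+ strand) for Emcn. Capitals mark 2 short motifs on either strand, that of ETS factors and the GC box, spelled out after the sequences.
Tie1: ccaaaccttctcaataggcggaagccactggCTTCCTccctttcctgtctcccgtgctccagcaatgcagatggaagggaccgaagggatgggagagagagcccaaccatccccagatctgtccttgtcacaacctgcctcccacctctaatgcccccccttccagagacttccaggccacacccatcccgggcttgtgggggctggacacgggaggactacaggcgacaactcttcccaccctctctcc
Kdr: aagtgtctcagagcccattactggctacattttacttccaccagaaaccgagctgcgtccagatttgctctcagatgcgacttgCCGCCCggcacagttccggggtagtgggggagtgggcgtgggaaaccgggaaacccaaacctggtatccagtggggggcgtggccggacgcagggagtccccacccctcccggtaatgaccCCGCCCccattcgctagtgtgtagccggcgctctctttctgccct
Tek: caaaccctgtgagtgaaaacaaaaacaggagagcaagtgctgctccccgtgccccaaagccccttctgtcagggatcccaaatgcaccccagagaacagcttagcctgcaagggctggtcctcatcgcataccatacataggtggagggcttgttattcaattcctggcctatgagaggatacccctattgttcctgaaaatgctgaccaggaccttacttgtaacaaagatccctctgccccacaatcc
Emcn: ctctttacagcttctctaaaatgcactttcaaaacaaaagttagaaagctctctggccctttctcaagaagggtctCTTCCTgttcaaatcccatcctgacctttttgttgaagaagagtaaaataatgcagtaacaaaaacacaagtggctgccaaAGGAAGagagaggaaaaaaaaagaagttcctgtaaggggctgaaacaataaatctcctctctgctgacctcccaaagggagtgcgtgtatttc

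The ETS form AGGAAG stood once in the Tie1 window and 2 times in each of the Emcn and Eng windows, so 3 of 5 promoters held it, against 29.5% of all 32851 promoter windows of this length. The GC box, GGGCGG, stood 2 times in the Kdr window and in 1 of 5 promoters, against 32.7% of all windows. The form AGATAA, of the factors that bind GATA sites, was in 0 of 5, against 9.99% of all windows. These matches describe the letters in the windows only.

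Across the 4 arrays 7 of the 10 probe sets kept had their lowest value in Het replicate 2, against 23.0% of all probe sets. It was 8 of 10 after quantile normalization, and also with the deposited scaling. The 23.0% holds for centred arrays, and the share was not counted under the other scalings. Relative to WT, 8 of 10 were lower in Het replicate 2 (36.6% of all probe sets), as were 7 of 10 in Het replicate 1 (50.6%), and in Hom 7 of 10 (54.3%). The counts for Het replicate 1 and Hom lie nearer to the background than that for Het replicate 2. All 3 counts share the same WT array. The Hom count was 6 with the deposited scaling and after quantile normalization, where the second Eng probe set was just above WT.

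**Figure D1:**
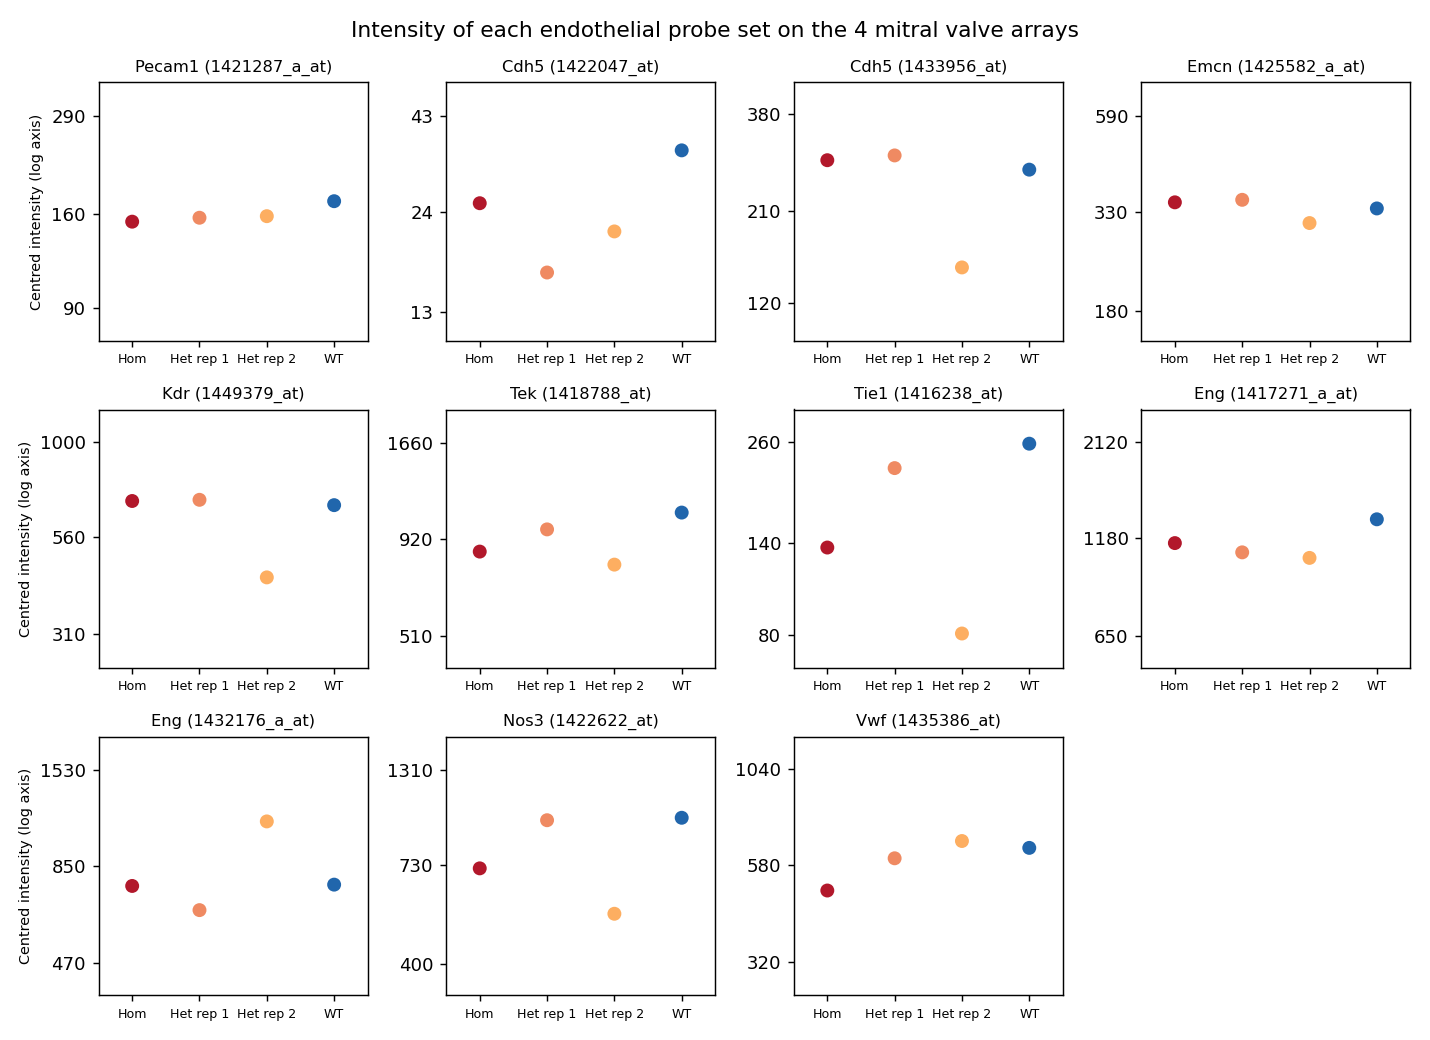
Centred intensity (log axis) of the 11 endothelial probe sets, each point 1 array, in the order Hom, Het replicate 1, Het replicate 2 and WT; every panel spans the same fold range. Tie1 runs from 80.6 in Het replicate 2 to 257 in WT, while Pecam1 stays between 152.4 and 172.7.

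Tie1, a receptor-like tyrosine kinase of endothelium that modulates angiopoietin signalling, varied most. Its intensity was 136.3 in Hom, 221.4 and 80.6 in Het replicates 1 and 2, and 257 in WT. Every mutant array was below WT, and Hom lay between the Het arrays. The difference from WT was -0.91 log2 units in Hom (limma SE 0.68, adjusted p = 1), and -0.22 and -1.67 in Het replicates 1 and 2; Tie1 was 3.19-fold lower in the second of these. Of all probe sets kept, 0.91% had a lower Hom minus WT difference, and 0.309% a lower Het replicate 2 minus WT difference. The Het arrays had a mean of 7.06 and an SD of 1.03 on the log2 scale (n = 2), so that the distance of Hom from WT was within the spread of 1 genotype label.

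Tek, the angiopoietin receptor also called Tie2, read 853.4 in Hom, 977.3 and 788.1 in Het replicates 1 and 2, and 1083 in WT. As for Tie1, all mutant arrays were below WT and Hom lay between the Het arrays, but the range was narrower. The differences from WT were -0.34 in Hom (limma SE 0.57, adjusted p = 1), -0.15 and -0.46 in Het replicates 1 and 2. Ptprb, the endothelial phosphatase that acts on Tek, read 930.2 in Hom, 1186 and 1243 in Het replicates 1 and 2, and 1077 in WT, above WT in both Het arrays and below it in Hom. The adaptor Dok2, which binds activated Tek, stayed between 69 and 73.4 on the 4 arrays.

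Kdr, the main signalling receptor for vascular endothelial growth factor, read 699.5 in Hom, 704.6 and 438.7 in Het replicates 1 and 2, and 682 in WT. Hom, Het replicate 1 and WT were close together, and Het replicate 2 was low. Its difference from WT was -0.64 log2 units in Het replicate 2, with Het replicate 1 at 0.05 and Hom at 0.04 (limma SE 0.59 for Hom against WT, adjusted p = 1). Against Het replicate 1 it was lower by 0.68, and by 0.94 with the scaling as deposited.

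Cdh5, which encodes VE-cadherin, the adhesion molecule of endothelial junctions, had a similar order. Its brighter probe set (1433956_at) read 287.2 in Hom, 295.7 and 149.2 in Het replicates 1 and 2, and 271.1 in WT. Only the Het replicate 2 array was below WT at this probe set. The difference was -0.86 log2 units there, with Het replicate 1 at 0.13 and Hom at 0.08. For the mean of both Het arrays against WT limma gave -0.37 (SE 0.54, adjusted p = 1), and 0.13 when Het replicate 2 was left out. The dimmer probe set was below WT on all mutant arrays, but near the floor.

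Nos3, the endothelial nitric oxide synthase, read 716.8 in Hom, 961.8 and 543.2 in Het replicates 1 and 2, and 976.3 in WT. Het replicate 1 and WT were nearly equal, and Hom lay between the Het arrays. The differences from WT were -0.45 in Hom (limma SE 0.60, adjusted p = 1), -0.02 and -0.85 in Het replicates 1 and 2. The Het arrays had an SD of 0.58 on the log2 scale (n = 2), larger than the distance of Hom from WT.

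Pecam1, an immunoglobulin-family adhesion molecule of endothelial contacts, varied little after centring. It read 152.4 in Hom, 156.1 and 157.6 in Het replicates 1 and 2, and 172.7 in WT. WT was the highest array, with Hom at -0.18 log2 units, Het replicate 1 at -0.15 and Het replicate 2 at -0.13. The Het arrays had an SD of 0.01 on the log2 scale (n = 2), well below limma's SE of 0.56 for Hom against WT, which borrows spread from all probe sets (adjusted p = 1). That SD holds for centred arrays. Het replicate 2 was at -0.37 from WT with the scaling as deposited and at -0.30 after quantile normalization.

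Emcn, the sialomucin endomucin of the endothelial surface, read 349.1 in Hom, 354.5 and 307.6 in Het replicates 1 and 2, and 336.3 in WT. Het replicate 2 was the only array below WT, by 0.13 log2 units, and by 0.37 with the scaling as deposited. Vwf, the adhesive protein of endothelial storage granules, read 495.2 in Hom, 602.9 and 670 in Het replicates 1 and 2, and 642.5 in WT. Hom was the lowest array for Vwf, at -0.38 from WT (limma SE 0.56, adjusted p = 1). Its Het replicate 2 value was 0.06 above WT after centring, but 0.18 below it with the scaling as deposited and 0.27 below it after quantile normalization.

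The probe sets of Eng, the coreceptor endoglin of the transforming growth factor beta family, disagreed. The first (1417271_a_at) read 1145 in Hom, 1082 and 1046 in Het replicates 1 and 2, and 1324 in WT, with WT the highest array. The second (1432176_a_at) read 753.8 in Hom, 650.4 and 1118 in Het replicates 1 and 2, and 759.9 in WT. For this probe set Het replicate 2 was the highest array, at 0.56 above WT, while the first probe set gave -0.34. It was the only one of the 10 above WT in Het replicate 2 under all 3 scalings. Their design allows both to match more than 1 transcript form of Eng.

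**Figure D2:**
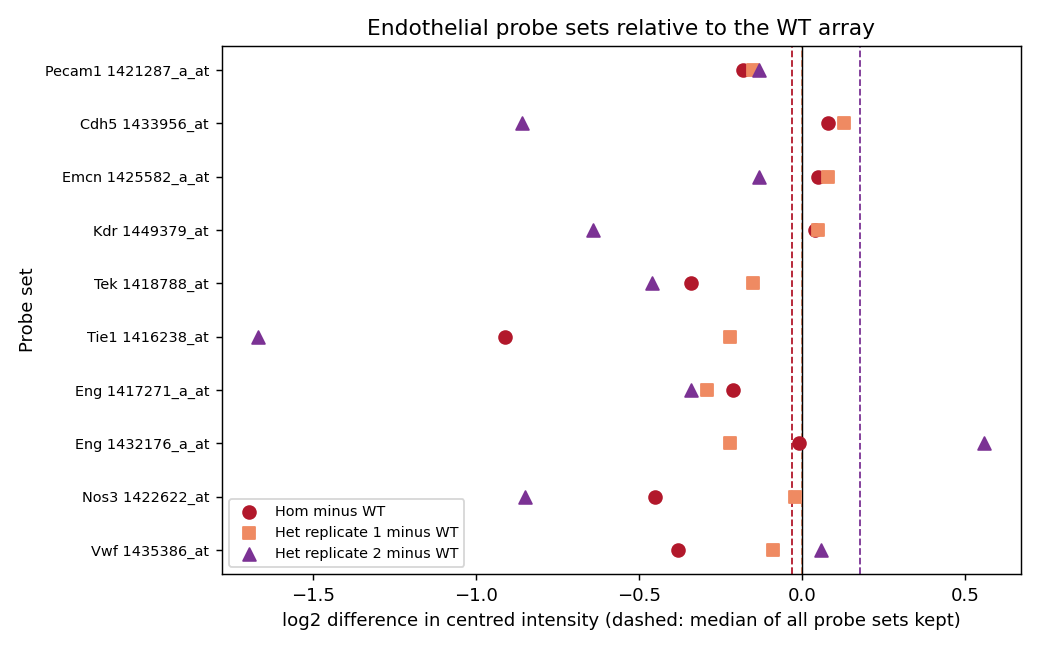
Log2 differences from the WT array for the 10 endothelial probe sets kept, with circles for Hom, squares for Het replicate 1 and triangles for Het replicate 2; dashed lines mark the median of all probe sets for each difference. The Het replicate 2 triangles spread from -1.67 for Tie1 to 0.56 for the second Eng probe set, while the Het replicate 1 squares lie between -0.29 and 0.13.

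Comparing Hom with WT asks what differs with 2 mutant copies. The median over the 9 genes, using the mean of a gene's probe sets that passed the filter, was -0.18 log2 units, against -0.03 for all probe sets, which leaves -0.15. Tie1 departed furthest, 0.73 log2 units below that median, and Cdh5 was 0.26 above it. No member was 2-fold from WT, as were 1.22% of all probe sets. Limma's test at an adjusted p under 0.05 called 0 of the 10 and 0.0% of all probe sets. At an unadjusted 0.05 it called 0 of the 10 and 0.486% of all. The spread behind this test came from the Het pair alone, with 1 residual degree of freedom.

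Comparing Het with WT asks what differs with 1 mutant copy. Both Het arrays were below WT for Tie1, Tek, Nos3, Pecam1 and the first Eng probe set, 5 of 10, against 21.0% of all probe sets, and in 0 of 10 were both above WT, against 33.8%. After quantile normalization Nos3 left these 5, at 0.01 above WT in Het replicate 1, and Vwf joined them. The 5 were also below WT in Hom, against 16.3% of all probe sets. The median over the genes was -0.29 for the mean of the Het arrays, or -0.38 relative to all probe sets. It was -0.09 and -0.46 in Het replicates 1 and 2, the second being -0.64 relative to all probe sets. Limma called 0 of 10 and 0.0% of all probe sets at an adjusted p under 0.05, and 0 of 10 and 1.02% of all at an unadjusted 0.05. After centring, Tie1 in Het replicate 2 was the only member at least 2-fold lower than WT on a Het array, where 2.25% of probe sets were that far below WT, against 1.28% in Het replicate 1. With the deposited scaling Cdh5 (-1.10) and Nos3 (-1.08) were also past 2-fold there, and after quantile normalization likewise (-1.03 and -1.16). The 2.25% holds for centred arrays, and the share past 2-fold was not counted under the other scalings.

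Comparing Hom with Het asks what the second mutant copy adds. Hom lay between the Het arrays for 7 of 10 probe sets, against 44.6% of all. It was below both for Pecam1 and Vwf, 2 of 10 against 36.6% of all, and above both for the first Eng probe set, 1 of 10 against 18.8%. For Pecam1 the differences from the Het arrays were only -0.04 and -0.05 log2 units. With the deposited scaling and after quantile normalization Hom lay between the Het arrays for Pecam1. The median over the genes was -0.01 log2 units, and 0.10 relative to all probe sets. Its sign turned with the scaling, to 0.14 as deposited and 0.18 after quantile normalization. Limma called 0 of 10 and 0.0% of all probe sets at an adjusted p under 0.05, and 0 of 10 and 0.796% of all at an unadjusted 0.05. Without Het replicate 2, Hom was below the remaining Het array for 8 of 10, with the share of all probe sets not counted. Among these 8, Kdr, Emcn, Cdh5 and Pecam1 were at -0.01, -0.02, -0.04 and -0.04 log2 units. Tie1, Nos3, Vwf and Tek were further below, at -0.70, -0.42, -0.28 and -0.20. The median over the genes was -0.04 there, against -0.02 for all probe sets.

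Between the Het arrays, which carry the same genotype label, the members split. Of the 10, 7 were lower in Het replicate 2, against 37.3% of all probe sets, and Tie1 was lower by at least 2-fold, against 3.08%. Tie1, Cdh5, Nos3 and Kdr were at least 1.5-fold lower in Het replicate 2 than in Het replicate 1, 4 of 10 against 9.45% of all probe sets. Their differences were -1.46, -0.99, -0.82 and -0.68 log2 units. Tek (-0.31), Emcn (-0.20), the first Eng probe set (-0.05), Pecam1 (0.01) and Vwf (0.15) differed less, and the second Eng probe set was higher in Het replicate 2 by 0.78. With the scaling as deposited 9 of 10 were lower in Het replicate 2 and the 4 genes differed by -1.71, -1.24, -1.08 and -0.94, in the same order. The share of all probe sets lower was not counted for that scaling. Their median difference moved as well, from 0.18 after centring to -0.08 as deposited. Relative to it, the median over the endothelial genes was -0.49 under both scalings. The SD of this difference was 0.65 over the 10 endothelial probe sets and 0.62 over all probe sets.

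**Figure D3:**
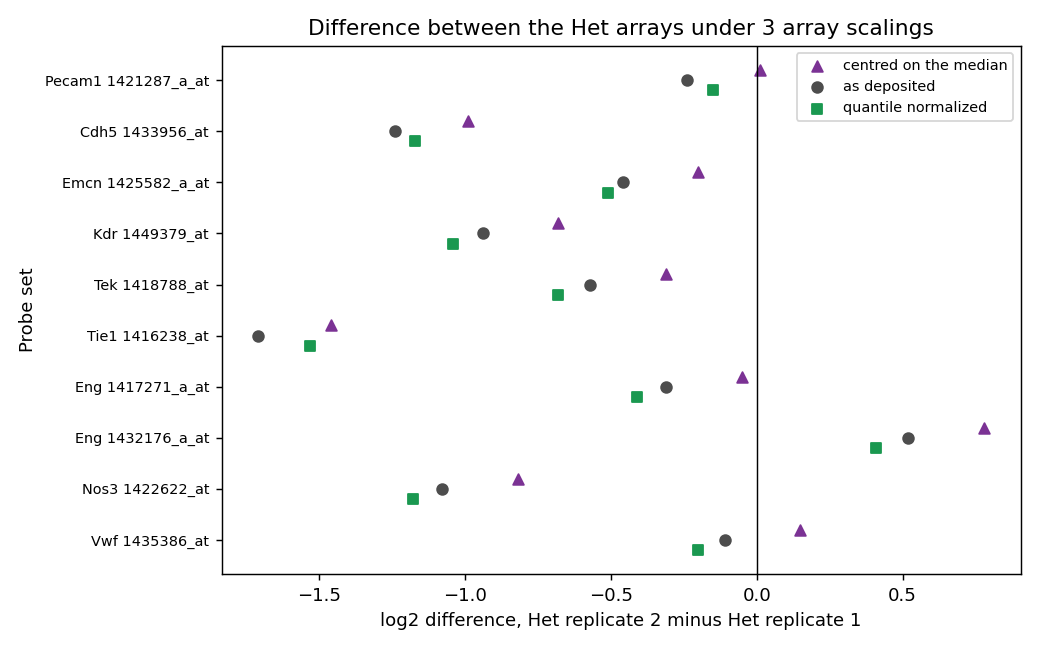
Log2 difference of Het replicate 2 minus Het replicate 1 for the 10 endothelial probe sets kept, with triangles for centred arrays, circles for the scaling as deposited and squares for quantile normalization. Tie1, Cdh5, Nos3 and Kdr lie below -0.6 under each scaling, the second Eng probe set lies above 0, and the signs of Vwf and Pecam1 turn with the scaling.

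Markers of other cell types also differed on Het replicate 2. Of all probe sets kept, 36.6% were below WT on this array, so most were not. This share applies to the counts here and to those of the cell types that follow. Sums of intensity for a marker list take each gene on the array once, by its brightest probe set, while counts are over all probe sets kept. Because values are not comparable between probe sets, a sum mostly follows the brightest ones and does not measure an amount of cells. Of 9 platelet probe sets 8 were above WT there, and the sum over 8 genes was 1284 in Hom, 2599 and 4797 in Het replicates 1 and 2, and 1446 in WT. Platelet Ppbp read 82.6 in Hom, 534.4 and 1025 in Het replicates 1 and 2, and 71.5 in WT. Of 19 macrophage probe sets 16 were above WT in Het replicate 2, and the sum over 13 genes was 4610 in Hom, 4075 and 8720 in Het replicates 1 and 2, and 4941 in WT. All 3 erythroid probe sets kept, from 2 genes, were above WT there, although 1 of the 4 erythroid genes named on the array was below the floor on every array.

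Of 16 cardiomyocyte probe sets 15 were below WT in Het replicate 2, with sums of 28675 in Hom, 38893 and 19418 in Het replicates 1 and 2, and 29823 in WT. Of 19 interstitial and fibroblast probe sets 18 were below WT there, with sums of 51628 in Hom, 55057 and 41111 in Het replicates 1 and 2, and 63874 in WT. The endothelial sum over the 9 genes was 4835 in Hom, 5356 and 4181 in Het replicates 1 and 2, and 5745 in WT. It takes Eng by its first probe set only, without the second, which was highest in Het replicate 2. Other pan-endothelial genes, listed below, summed to 9347 in Hom, 9408 and 9832 in Het replicates 1 and 2, and 10167 in WT. By that sum Het replicate 2 was above Hom and Het replicate 1. Relative to all probe sets, the median in Het replicate 2 was -0.58 for the 10 endothelial probe sets. It was -1.05 for cardiomyocyte and -0.76 for interstitial and fibroblast markers, against 1.11 for platelet, 0.59 for macrophage and 1.14 for erythroid markers. Smooth muscle and pericyte markers summed to 4859 in Hom, 4861 and 7517 in Het replicates 1 and 2, and 4206 in WT. Acta2 (4312 in Het replicate 2, 2588 in WT) and Tagln (2353 in Het replicate 2, 855.9 in WT) made up most of this sum; 3 of the 8 probe sets kept were below WT in Het replicate 2. The part of these cell types, and of the Actb and Gapdh ratios, in the endothelial values was not tested.

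**Figure D4:**
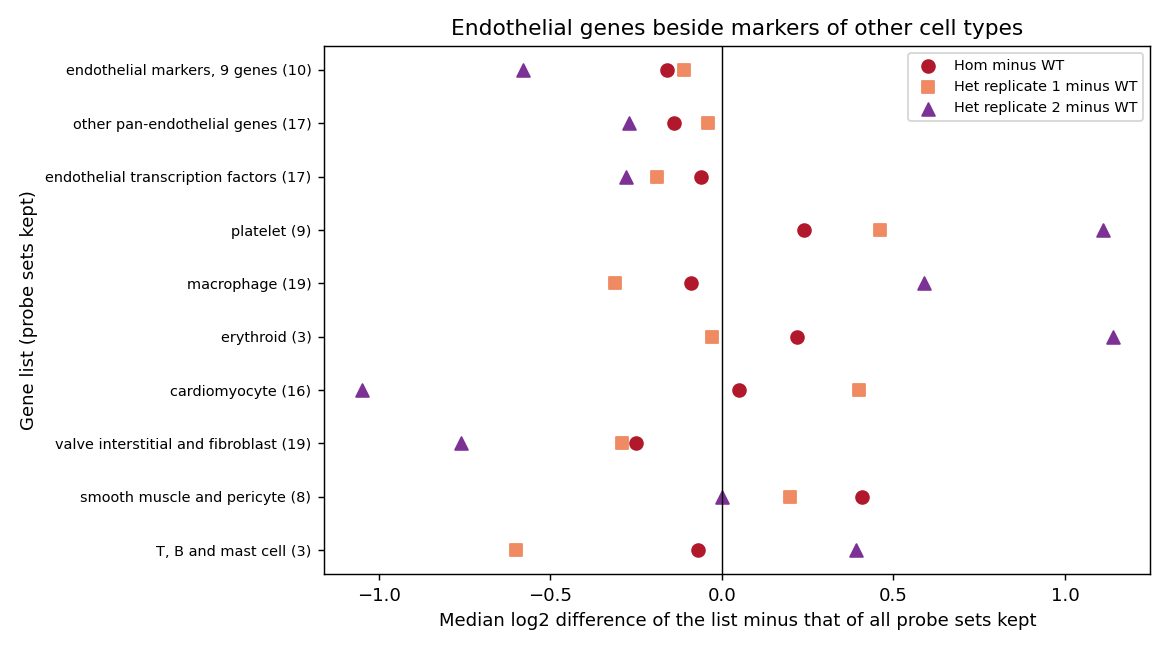
Median log2 difference from WT of each gene list, minus the median of all probe sets kept, with circles for Hom, squares for Het replicate 1 and triangles for Het replicate 2; numbers in brackets are probe sets. In Het replicate 2 the endothelial, cardiomyocyte and interstitial lists lie below 0, and the platelet, macrophage and erythroid lists above it.

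Other genes used as pan-endothelial markers were read from a separate list. Of its 20 genes, 13 had a kept probe set, 17 probe sets in all, and 0 passed limma's test in any comparison. Relative to all probe sets their median was -0.14 in Hom, -0.04 and -0.27 in Het replicates 1 and 2. Below WT were 12 of 17 in Hom, 11 in Het replicate 1 and 12 in Het replicate 2. For this and the following lists, 54.3% of all probe sets kept were below WT in Hom, 50.6% in Het replicate 1 and 36.6% in Het replicate 2. Thbd, the anticoagulant thrombomodulin, read 695.1 in Hom, 536.7 and 567.8 in Het replicates 1 and 2, and 902.8 in WT, with WT the highest array. Plvap, the diaphragm protein of fenestrated endothelium, was the opposite, at 949.1 in Hom, 1053 and 972.9 in Het replicates 1 and 2, and 649.3 in WT. The Plvap differences from WT were 0.55, 0.70 and 0.58 log2 units (limma adjusted p = 1 for Hom against WT, SE 0.56). Calcrl, the adrenomedullin receptor, read 514.3 in Hom, 348.6 and 694.3 in Het replicates 1 and 2, and 766.6 in WT by its brighter probe set. Its dimmer probe set differed in order, at 63.55 in Hom, 62.85 and 51.58 in Het replicates 1 and 2, and 80.95 in WT.

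Endothelial transcription factors had 17 probe sets kept for 12 of 13 genes; 11 were below WT in Hom, 11 in Het replicate 1 and 11 in Het replicate 2, not the same probe sets on each array. Klf2, a factor induced by shear stress that activates Nos3, read 1111 in Hom, 966.7 and 313.8 in Het replicates 1 and 2, and 1140 in WT. Its order of arrays was low in Het replicate 2 and close together elsewhere, as for Kdr and Cdh5. The difference from WT was -1.86 log2 units in Het replicate 2, with Het replicate 1 at -0.24 and Hom at -0.04 (limma adjusted p = 1, SE 0.62 for the mean of the Het arrays against WT). Fli1, an ETS factor, read 63.6 in Hom, 61.1 and 97.7 in Het replicates 1 and 2, and 124.7 in WT, but its dimmer probe set gave a Hom minus WT difference of 0.33 against -0.97. Nfatc1, a factor of the endocardium that is needed for valve formation, lay 0.44 above WT in Hom by 1 probe set and 0.01 by the other. Sox17 was 1.57 above WT in Het replicate 2 by 1 probe set and 0.33 by the other.

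Ligands and receptors around Kdr had 16 probe sets kept for 9 genes, with 8 below WT in Hom, 8 in Het replicate 1 and 9 in Het replicate 2. Vegfa, the principal ligand of Kdr, read 102.6 in Hom, 93.95 and 84.63 in Het replicates 1 and 2, and 170.2 in WT. All mutant arrays were low by this probe set, with Hom 0.73 log2 units below WT (limma SE 0.56, adjusted p = 1), while its other probe set, below the filter, read 52.9 in Hom, 49.6 and 44.6 in Het replicates 1 and 2, and 25.7 in WT. Vegfd was 0.69 above WT in Hom by the probe set that stood highest, and -0.07 and 0.11 by the others. Pgf, placental growth factor, was under the floor at 14.6 in Het replicate 1, and read 78.8 in Hom, 76.85 in Het replicate 2 and 109.2 in WT.

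**Figure D5:**
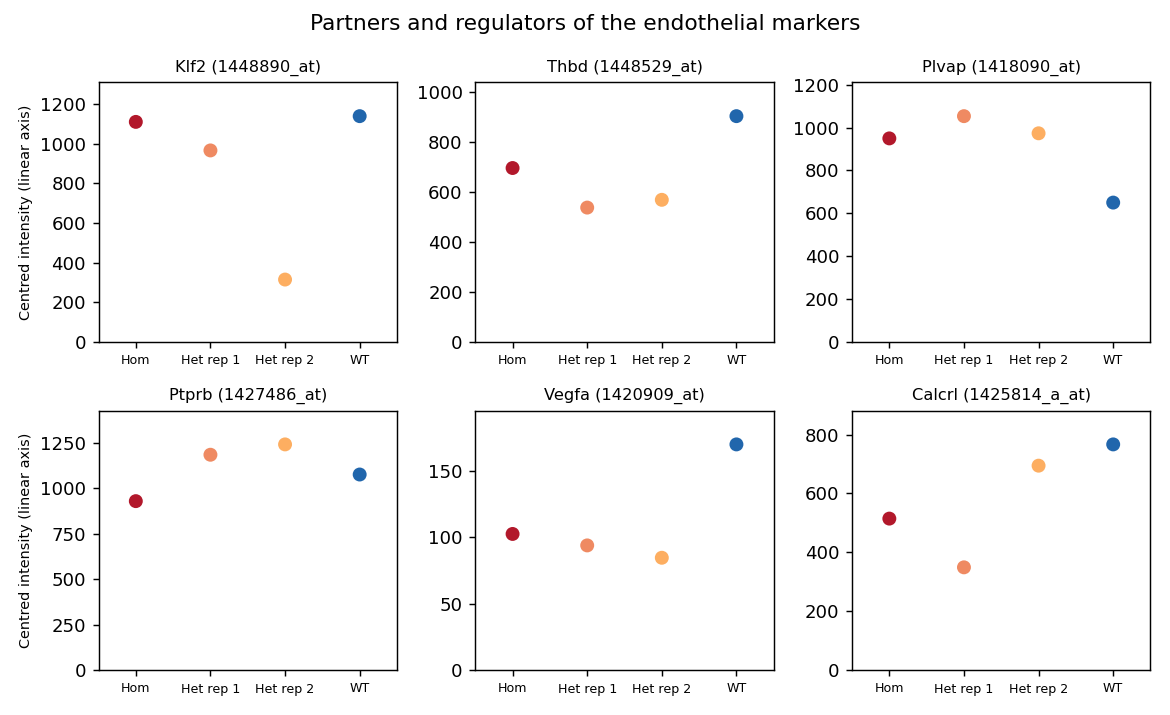
Centred intensity (linear axis from 0) of 6 genes from the lists of endothelial partners and regulators, each point 1 array, in the order Hom, Het replicate 1, Het replicate 2 and WT. Klf2 is low in Het replicate 2 at 313.8, Thbd and Vegfa are highest in WT, and Plvap is lowest in WT at 649.3.

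Junction partners of Cdh5 and Pecam1 had 15 probe sets kept for 11 genes, with 12 below WT in Hom, 9 in Het replicate 1 and 9 in Het replicate 2. Ctnnb1, the beta-catenin that binds cadherin tails, read 43.2 by its dimmest probe set in Het replicate 2 and 142.1 in WT, a difference of -1.72, against -0.42 by its brightest. Endoglin partners had 8 probe sets kept, with 3 below WT in Hom, and Acvrl1, the type I receptor that signals with endoglin, stood 0.28 above WT in Hom. Regulators of nitric oxide synthase had 15 probe sets kept, with 3 below WT in Hom. Cav2, a caveolin, was 1.07 above WT in Hom by 1 probe set and 0.34 by the other.

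Partners of Vwf and genes of activated endothelium had 9 probe sets kept, with 1 below WT in Hom. The adhesion molecule Vcam1 read 600.2 in Hom, 511.3 and 1051 in Het replicates 1 and 2, and 629.8 in WT by the brightest of 3 probe sets; the others were 0.43 and 0.08 above WT in Hom. Gp9 and Gp1bb, subunits of the platelet receptor for von Willebrand factor that also stand in the platelet list, were 2.50 and 2.31 above WT in Het replicate 2, but the second Gp1bb probe set was at -0.05. Of 5 lymphatic endothelial genes 1 was kept, Pdpn, at 164.9 in Hom, 147.7 and 232.5 in Het replicates 1 and 2, and 164.4 in WT. Genes of endothelial to mesenchymal transition had 8 probe sets kept, with 3 below WT in Hom, 5 in Het replicate 1 and 4 in Het replicate 2. Snai1, a repressor of Cdh5, read 104.4 in Hom, 83 and 99.4 in Het replicates 1 and 2, and 71.4 in WT. None of the lists held a probe set that passed limma's test in any comparison.

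The median profile of the 9 genes over the 4 arrays was matched by distance to other genes. The 5 nearest of 7299 genes were Ehbp1, Uqcrb, 1110051M20Rik, Mrpl10 and Mtx2, with root mean square distances of 0.0095 to 0.019 log2 units. Ehbp1 read 100.2 in Hom, 111.4 and 90.1 in Het replicates 1 and 2, and 113.7 in WT. The members themselves lay at 0.05 (Tek) to 0.51 (Tie1) from that profile, and 520 other probe sets lay within 0.1.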

How the data were processed

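Single-colour arrays of mouse mitral valve RNA gave 1 intensity per probe set and array, deposited by the authors on a linear scale; their software and normalization are not given in the sources used here. Each deposited array had the same mean after leaving out 2% at each end. Groups were taken from the labels. Arrays were scaled to a common median, values floored at the 25th percentile (19) and log2 transformed, and probe sets with a mean of at least 62.6 were kept (11313). Symbols came from the platform annotation, updated by gene identifier; 20380 probe sets had 1 gene, 691 several and 1555 none, and 64 control probe sets were left out. Limma 3.58.1 in R 4.3.3 (lmFit, eBayes, Benjamini-Hochberg over all probe sets kept, threshold 0.05) fitted 3 groups on 4 arrays. The code was also run on simulated data, where only the median error of the fitted differences had to pass a limit. That run does not show the power of the test on these arrays. The number of arrays limits the precision.

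By rule, named genes outside the 9 were the highest and lowest of each list for Hom or Het against WT. Any called by limma and the nearest profiles were also to be named. This rule left out the marker lists of other cell types. Ppbp, Acta2, Tagln, the promoters shown, the motifs and the size and order rules behind the counts of members were chosen after values were seen. Members and lists were chosen with earlier results of these data known. Alternatives were other scalings, filters, floors, probe set rules, moderation and leaving out a Het array. Figures were drawn with matplotlib 3.10.9.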

Additional observations from a re-analysis of the deposited data

How the results depend on the processing

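Limits are the single Hom and WT arrays, a spread from 2 Het arrays that differ widely, and dim probe sets near the floor. Of 30 member differences (10 probe sets, 3 comparisons), 16 kept their sign under every alternative run and 14 turned, with none called by limma in any setting. The filters, the lower floor, the probe set rule and the moderation could not change the value of a member difference. Leaving out a Het array could not change one for Hom against WT. Signs could turn only with the scaling, the added constant or, where Het was compared, an array left out. Limma called 1 probe set of all for Het against WT after quantile normalization and 1 with the filter at the 75th percentile, neither a member, and 0 otherwise. The counts of members were added after seeing the data. Members below WT on both Het arrays numbered 5, and 3 with the filter at the 75th percentile, which keeps 8 probe sets. They numbered 6 with the scaling as deposited and, over 11 probe sets, without a filter. With a Het array left out, the rule asks about the remaining array only and is easier to meet. It then gave 7 for Het replicate 1 and 8 for Het replicate 2. Members in Hom below both Het arrays numbered 2, and 1 after quantile normalization, with the scaling as deposited and with the filter at the 75th percentile. Against 1 Het array alone, also an easier rule, they numbered 3 without Het replicate 1 and 8 without Het replicate 2. Leaving out either Het array left no residual degrees of freedom, so limma was not run there. The median member difference for Het against WT was -0.46 without Het replicate 1 and -0.09 without Het replicate 2, each being the value of the remaining Het array alone. For Hom against Het the median, -0.01, was 0.18 after quantile normalization, 0.14 as deposited, 0.03 with one probe set per gene, 0.10 relative to all probe sets, 0.18 without Het replicate 1 and -0.04 without Het replicate 2.

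Differences that turned sign were as follows; the cause was not tested. For Hom against WT, the second Eng probe set was 0.05 after quantile normalization and 0.03 as deposited. For Hom against Het, Tek, Pecam1, Nos3 and the second Eng probe set were 0.16, 0.04, 0.20 and 0.02 after quantile normalization, and Tek, Pecam1 and Nos3 were 0.11, 0.11 and 0.14 as deposited. Tie1 was -0.01 for Hom against Het with 50 added to each value. Values with a Het array left out follow, first without Het replicate 1 and then without Het replicate 2. For Het against WT, Emcn was -0.13 and 0.08, Cdh5 -0.86 and 0.13, and Kdr -0.64 and 0.05. In that comparison the second Eng probe set was 0.56 and -0.22, and Vwf 0.06 and -0.09. For Hom against Het, Tie1 was 0.76 and -0.70, Tek 0.11 and -0.20, and Nos3 0.40 and -0.42. Emcn was 0.18 and -0.02 there, and the second Eng probe set -0.57 and 0.21. Cdh5 was 0.94 and -0.04, and Kdr 0.67 and -0.01. No paired analysis was possible because only the Het group carries replicate numbers.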
